A study of Homo sapiens with 12 samples.

Results

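The genes of ISG15 conjugation were followed in SK-N-DZ, a neuroblastoma cell line, after exposure to IFNγ and after doxycycline induction of a hairpin against ARID1A, a subunit of the SWI/SNF chromatin remodelling complex. The members were the 7 genes ISG15, UBA7, UBE2L6, HERC5, HERC6, USP18 and TRIM25, taken by symbol from the 43769 genes of the count table. Group C was untreated, group D received doxycycline for 4 days, group I received IFNγ for 24 h, and group DI received both, with 3 libraries in each of the 4 groups. Every library came from a clonal line carrying the doxycycline-inducible shARID1A construct, with MYCN amplified and ARID1A wild-type, and the labels name C and I as WT and D and DI as shARID1A. No library had doxycycline without the hairpin, so doxycycline itself, the hairpin and loss of ARID1A cannot be told apart here.

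ISG15 is a small ubiquitin-like protein that is joined to lysines of other proteins by a cascade parallel to that of ubiquitin. UBA7 is the activating enzyme, UBE2L6 the conjugating enzyme, and HERC5 the principal ligase in human cells. HERC6 is the neighbouring paralog of HERC5 and serves as the main ISG15 ligase in the mouse. TRIM25 is a RING ligase best known for its part in RIG-I signalling that has also been reported to attach ISG15. USP18 removes ISG15 from its targets and restrains signalling from the type I interferon receptor. The whole set is best known as a type I interferon response, and interferons reach such genes through STAT and IRF factors that bind ISRE and GAS elements.

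Total counts were between 16469832 and 21790869 per library, and 15828 genes passed the filter on low counts, among them all 7 members. A count of 3, used as the detection floor, was worth 0.135 to 0.187 CPM, the count scaled to library size. All 9 neuroblastoma markers were above the floor in all 12 libraries, with summed levels of 4222 to 5583 CPM. The 5 lymphocyte or macrophage markers summed to 0.198 to 1.25 CPM, with CD3E at 0. The 5 fibroblast or endothelial markers summed to 22.4 to 55.5 CPM without IFNγ and 45.5 to 110 CPM with it, with PECAM1 at 0. Most of that sum was 1 gene, PDGFRB, with means of 35.2 CPM in C and 65.3 CPM in I. Of these 5 markers, 2 were above the floor in all 12 libraries. The part of these markers in the results below was not tested. ARID1A mRNA was 197, 186 and 165 CPM in C and 197, 159 and 158 CPM in D. With IFNγ, it was 192, 203 and 194 CPM in I against 151, 133 and 148 CPM in DI. The C and D values overlapped (log2 fold change −0.09, adjusted p = 0.788), and DI lay below every I library (−0.44, adjusted p = 0.115, or 0.0111 with the replicate number as a block, all by edgeR's quasi-likelihood test). The ARID1A transcript did not separate D from C, and directions drawn for doxycycline refer to the libraries as labelled.

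The sequences before the start sites were searched first, to show which interferon-related letters they carry. RefSeq windows on GRCh38.p14, from 250 bases before to 50 bases after a start, were matched for 5 of the 7 genes, and UBA7 and USP18 were not matched. The ISRE core was taken as TTTC, 2 free bases and TTTC on either strand, and overlapping matches were each counted. The 5 genes had 6 windows, and 2 of these (those of ISG15 and HERC5) held it, against 3.57% of all 35116 promoter windows. The ISG15 window carried 2 overlapping matches on the opposite strand, at 113 and 107 bases before the start. The HERC5 window carried 3 on the same strand, at 125, 119 and 74 bases before the start, of which the first pair overlap. The GAS core, TTC and GAA around 3 free bases, present in 7.66% of all windows, was in none of the member windows. HERC6, which lies next to HERC5 on chromosome 4, is shown beside it as a paralog with neither motif in its window. The absence of a match says only that these letters are not in these windows. Capitals mark the ISRE matches in the following windows, which lie at chr1:1013247-1013546 for ISG15, chr4:88456869-88457168 for HERC5 and chr4:88378602-88378901 for HERC6, all on the plus strand and written 5′ to 3′.
ISG15: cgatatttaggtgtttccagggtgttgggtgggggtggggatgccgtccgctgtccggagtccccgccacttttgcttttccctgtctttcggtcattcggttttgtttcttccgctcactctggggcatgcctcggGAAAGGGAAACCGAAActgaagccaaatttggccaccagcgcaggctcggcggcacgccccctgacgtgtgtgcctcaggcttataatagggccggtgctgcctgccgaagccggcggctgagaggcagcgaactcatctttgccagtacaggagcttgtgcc
HERC5: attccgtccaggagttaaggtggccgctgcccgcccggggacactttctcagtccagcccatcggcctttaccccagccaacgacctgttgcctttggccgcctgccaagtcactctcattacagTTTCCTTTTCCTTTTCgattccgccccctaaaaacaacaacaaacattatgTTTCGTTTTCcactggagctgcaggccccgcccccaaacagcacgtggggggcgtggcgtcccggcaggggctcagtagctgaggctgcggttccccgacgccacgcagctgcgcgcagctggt
HERC6: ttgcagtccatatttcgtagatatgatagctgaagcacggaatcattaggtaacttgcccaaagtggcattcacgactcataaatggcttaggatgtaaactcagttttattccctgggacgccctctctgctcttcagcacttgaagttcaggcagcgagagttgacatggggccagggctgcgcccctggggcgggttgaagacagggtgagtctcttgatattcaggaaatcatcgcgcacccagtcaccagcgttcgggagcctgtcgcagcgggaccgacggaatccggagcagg

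ISG15 itself, at chromosome 1, 1001138 to 1014540, plus strand (GRCh38, GENCODE 29), was already transcribed in untreated cells and was strongly raised by IFNγ. Without IFNγ its level was 18.1, 12.8 and 10.3 CPM in C and 10.8, 10.5 and 9.50 CPM in D. With IFNγ it reached 294, 267 and 227 CPM in I and 177, 135 and 134 CPM in DI. Every library with IFNγ was far above every library without it, and the I and DI libraries did not overlap. ISG15 rose by 4.26 on the log2 scale in I against C (SE 0.22, adjusted p = 6.56e-07) and by 3.85 in DI against D (SE 0.21, adjusted p = 1.47e-06, edgeR). In bulk RNA, more expressing cells and more transcript per cell cannot be told apart.

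UBA7, the activating enzyme that starts the cascade (chromosome 3, 49805207 to 49813946, minus strand), went from the detection floor to abundant reads. Its raw counts were 1, 1 and 0 in C and 3, 4 and 2 in D. The counts were 722, 712 and 772 in I and 682, 635 and 726 in DI, or 38.3 ± 2.40 CPM and 33.4 ± 1.37 CPM (SD, n = 3 each). Because the C counts were below the floor, the rise is a lower bound: with each C library set at 3 counts, UBA7 was at least 221-fold higher in I than in C. It had an adjusted p of 2.28e-08 in I against C and 3.96e-08 in DI against D (edgeR), and its SD was the smallest of the 7 genes relative to the mean in both IFNγ groups.

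UBE2L6, which carries activated ISG15 to the ligases (chromosome 11, 57551656 to 57568284, minus strand), was the most abundant of the genes in every group. It measured 71.2, 70.4 and 58.2 CPM in C and 56.2, 63.7 and 54.2 CPM in D, against 843, 894 and 751 CPM in I. In DI it measured 611, 611 and 449 CPM. The IFNγ libraries lay far above the others, and the 3 DI libraries lay below the 3 I libraries. UBE2L6 rose by 3.64 in I against C (SE 0.15, adjusted p = 1.67e-07) and by 3.26 in DI against D (SE 0.15, adjusted p = 4.09e-07) on the log2 scale (edgeR).

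**Figure D1:**
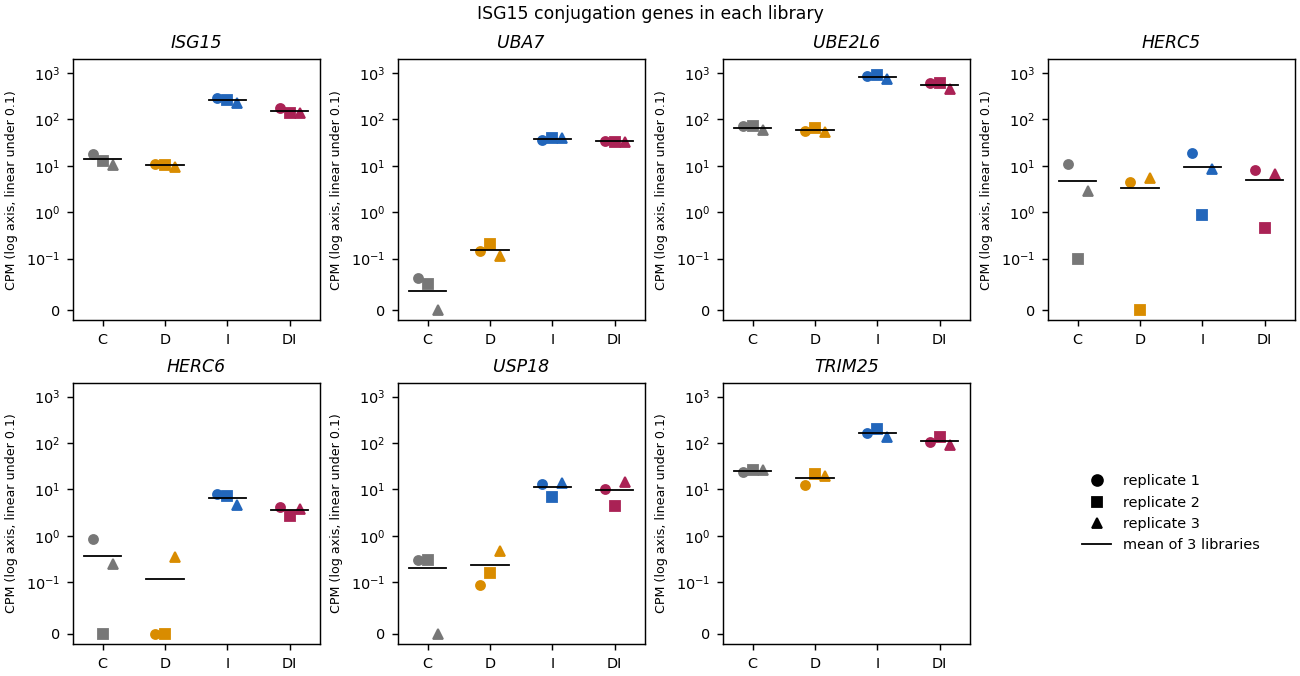
Level of each of the 7 genes in CPM (counts scaled to library size, logarithmic axis, linear under 0.1) in the 12 libraries, by group (C untreated, D doxycycline, I IFNγ, DI both). Symbols are replicate numbers and bars are means of 3 libraries. In 6 genes every IFNγ library lies above every library without it, and in HERC5 replicate 2 lies lowest in each group.

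The ligases differed from each other. HERC5 (chromosome 4, 88457117 to 88506163, plus strand) had 179, 2 and 47 counts in C and 93, 0 and 93 in D. With IFNγ it had 384, 16 and 161 counts in I against 157, 9 and 147 in DI. With all libraries the groups overlapped widely, and replicate 2 was lowest in every group. Without replicate 2, I still overlapped with C, and D with C. In those libraries DI measured 8.06 and 6.62 CPM, above D at 4.43 and 5.39 CPM, and I lay above DI. HERC5 passed in neither IFNγ comparison under any of the fits tried, with a log2 fold change of 1.02 in I against C (SE 1.53, 95% interval −2.34 to 4.38, adjusted p = 0.9998) and 0.63 in DI against D (SE 1.53, adjusted p = 0.9998, edgeR). In this fit, which takes no account of replicate number, the intervals include both a large rise and none. Libraries with the same replicate number were then set side by side. HERC5 was higher with IFNγ in all 3 pairs of I and C and all 3 pairs of DI and D. With the replicate number as a block, its log2 fold change was 1.28 (SE 0.50) in I against C and 0.76 (SE 0.51) in DI against D. It still did not pass in that fit (adjusted p = 0.204 and 0.594, edgeR).

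HERC6 (chromosome 4, 88378739 to 88443111, plus strand) had 14, 0 and 4 counts in C and 0, 0 and 6 in D. It had 158, 133 and 86 counts in I and 82, 51 and 85 in DI. Each IFNγ library was thus above every library without IFNγ, and with floor counts in place of lower ones the mean was 15.6-fold higher in I than in C. The call depended on the fit: the adjusted p in I against C was 0.0977 without a block and 0.00792 with it, and in DI against D it was 0.0862 and 0.0112 (edgeR). HERC6 passed in both by DESeq2 (adjusted p = 0.000115 and 3.49e-05), in I against C by limma voom (0.0175), and in DI against D with no filter on low counts (0.0361) or without C replicate 2 (0.0297) or D replicate 3 (0.0372).

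TRIM25 (chromosome 17, 56836387 to 56914080, minus strand) was expressed in all groups. It measured 23.8, 26.0 and 26.7 CPM in C and 12.2, 21.0 and 19.5 CPM in D. Its levels with IFNγ were 164, 199 and 132 CPM in I against 103, 137 and 90.1 CPM in DI. It rose by 2.70 in I against C (SE 0.23, adjusted p = 4.04e-05) and by 2.65 in DI against D (SE 0.23, adjusted p = 5.64e-05, edgeR). Part of its annotated exon sequence is shared with DGKE (80 bases), C17orf67 (132 bases) and the antisense gene AC015912.1 (538 bases), and the strand setting of the counting is not given in the sources used here, so reads from those bases are uncertain.

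USP18, the protease that takes ISG15 off (chromosome 22, 18149899 to 18177397, plus strand), was almost undetected without IFNγ, at 5, 6 and 0 counts in C and 2, 3 and 8 in D. It reached 267, 124 and 260 counts in I and 199, 86 and 313 in DI. Replicate 2 was the lowest in both IFNγ groups, yet stood far above all libraries without IFNγ. With low C libraries set at 3 counts, the mean was 42.4-fold higher in I than in C, and the adjusted p was 0.00191 in I against C and 0.00330 in DI against D (edgeR). Without replicate 1 in every group, which leaves 2 libraries in each, these became 0.178 and 0.345. USP41, a near-identical copy of USP18, had at most 1 count in a library, and reads that fit both copies are uncertain.

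Across the set, 5 of 7 genes were called higher in I against C, where 2.10% of all tested genes were called higher, and none was called lower. The same count, 5 of 7, was called higher in DI against D, where 1.67% of all genes were. With the replicate number as a block, 6 of 7 were called in each (4.88% and 3.77% of all genes), the added gene being HERC6. The median log2 fold change of the 7 was 4.15 in I against C and 3.85 in DI against D, against −0.01 over all tested genes in both. Groups did not overlap for 6 of the 7 in I against C, against 8.84% of all genes being higher without overlap, and for 6 of the 7 in DI against D, against 5.77%.

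**Figure D2:**
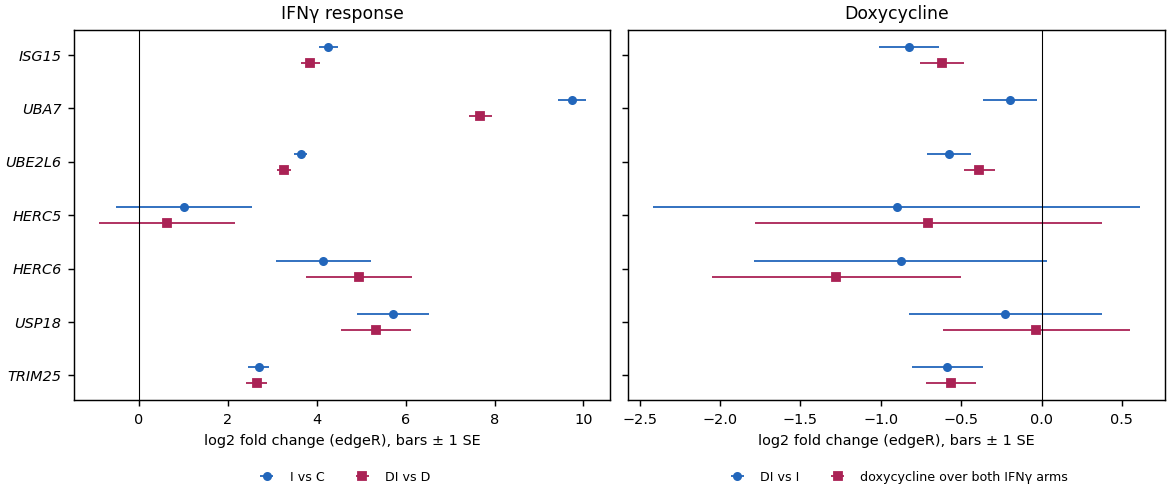
Fitted log2 fold changes with standard errors (edgeR) for the 2 IFNγ comparisons (left) and for doxycycline under IFNγ and over both IFNγ arms (right). The IFNγ values run from 0.63 to 9.75, and under IFNγ all 7 doxycycline values are below 0. Values of UBA7, HERC6 and USP18 against groups near 0 counts depend on the fit and are not bounds. UBA7 over both arms is not drawn for that reason, whereas HERC6 and USP18 are drawn. The fitted UBA7 value there was 0.83 (adjusted p = 0.254, edgeR), and the other 6 were below 0.

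To compare levels between genes, CPM was divided by the exon length in kilobases (RPKM). In untreated cells the order was UBE2L6 at 30.3 RPKM, ISG15 at 14.6 and TRIM25 at 2.68, followed by HERC5 at 0.981, USP18 at 0.0948, HERC6 at 0.0639 and UBA7 at 0.00815. The first 3 did not overlap with their neighbours, and the last 4 overlapped each with the next. Before IFNγ, therefore, transcripts of the modifier and of the conjugating enzyme were measured in cells where those of the activating enzyme were at the floor. With IFNγ the order was UBE2L6 at 378 RPKM, ISG15 at 279, TRIM25 at 17.4, UBA7 at 8.44, USP18 at 5.26, HERC5 at 1.98 and HERC6 at 1.13. UBA7 had moved from last to the fourth place, and USP18, HERC5 and HERC6 again overlapped each with the next. UBE2L6 and ISG15 together made up most of the summed RPKM of the 7 genes, with UBE2L6 at 57.1 to 66.1% in C and 52.4 to 56.1% in I, and ISG15 at 26.7 to 33.9% in C and 39.2 to 42.6% in I. Group DI kept the same order as I. With the longest transcript in place of the exon length, HERC6 and USP18 changed places in untreated cells.

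**Figure D3:**
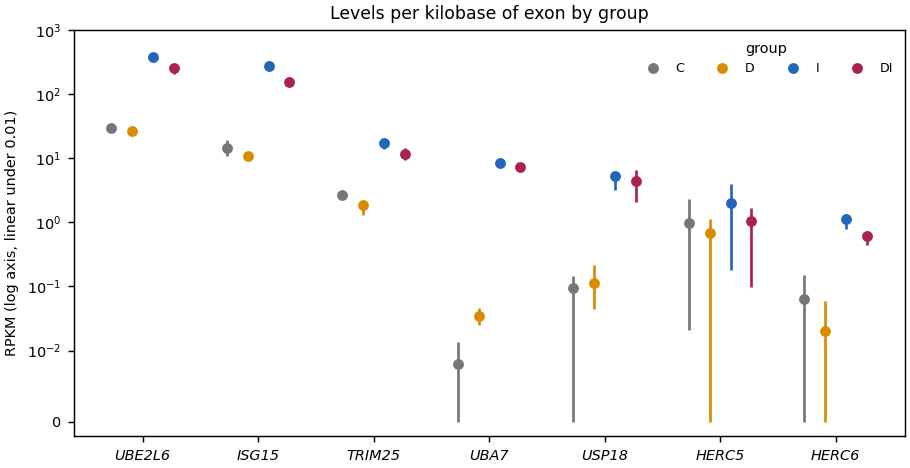
Level per kilobase of exon (RPKM, logarithmic axis, linear under 0.01) of the 7 genes, ordered by their level with IFNγ. Points are means of 3 libraries and lines span the lowest to the highest library. UBA7 runs from 0.00815 in C to 8.44 in I, whereas the HERC5 lines of the 4 groups overlap.

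Under IFNγ, the mean of the doxycycline libraries was lower for all 7 genes, and none passed in the fit without a block. The DI mean was 56.5% of the I mean for ISG15, 67.1% for UBE2L6, 66.7% for TRIM25, 54.4% for HERC6, 53.5% for HERC5, 85.5% for USP18 and 87.2% for UBA7. None of the 7 was called by edgeR (0.569% of all genes were called lower), and 3 had an unadjusted p under 0.05, as did 12.2% of all genes. Those were ISG15 at a log2 fold change of −0.82 (SE 0.19, adjusted p = 0.0870), UBE2L6 at −0.57 (SE 0.14, adjusted p = 0.106) and TRIM25 at −0.59 (SE 0.22, adjusted p = 0.302). With the replicate number as a block these 3 were called lower, against 6.62% of all genes, with adjusted p of 0.00104, 0.00168 and 0.0390. DESeq2 called ISG15 and UBE2L6 (adjusted p = 0.00305 and 0.0103), and limma voom called ISG15 alone (0.0291). The median of the 7 was −0.59 against −0.01 over all tested genes.

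Pairs of libraries with the same replicate number showed the pattern gene by gene. Counting each of the 7 genes in each of the 3 pairs, the DI value was below the I value in 20 of 21 cases. The 7 genes share the same 3 pairs, so these cases are not independent. The share of lower pairs over all tested genes was not counted. By the fitted log2 fold change in DI against I, all 7 members were below 0, as were 51.1% of all tested genes. ISG15 in DI was 60.0%, 50.5% and 59.1% of I in replicates 1, 2 and 3, UBE2L6 was 72.5%, 68.3% and 59.7%, and TRIM25 was 62.7%, 69.0% and 68.0%. The one pair in the other direction was USP18 in replicate 3, at 14.1 CPM in DI and 13.6 CPM in I. Leaving out DI replicate 2 turned the USP18 difference to 0.12 on the log2 scale, and leaving out I replicate 1 turned that of HERC5 to 0.11. The DI and I groups did not overlap for 4 of the 7 genes, ISG15, UBA7, UBE2L6 and HERC6, against 8.41% of all genes lower without overlap. For UBA7 the difference was small, with a log2 fold change of −0.20 (SE 0.17, 95% interval −0.57 to 0.18, adjusted p = 0.730).

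Without IFNγ, none of the 7 was called in D against C, where edgeR called 1.23% of all genes. An unadjusted p under 0.05 was found for 2, UBA7 and TRIM25, and for 14.2% of all genes. UBA7 was higher in D, at 2 to 4 counts against 0 to 1 in C, and TRIM25 was lower. ISG15 had a log2 fold change of −0.41 (SE 0.20, adjusted p = 0.380), which passed with the block (0.0458, where 7.67% of all genes were called lower). TRIM25 was lower in each D library than in each C library, as were 9.10% of all genes, with −0.54 (SE 0.22, adjusted p = 0.307, or 0.0531 with the block). UBE2L6 had −0.20 (SE 0.14, adjusted p = 0.580). UBA7, HERC6 and USP18 were at or near the floor in both groups, so their folds are not read here, and HERC5 overlapped. The folds of HERC6 and USP18 given further below show only that their sign depended on the libraries used.

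Doxycycline was next averaged over the arms with and without IFNγ, which uses all 12 libraries. Of the 7 genes 2 were called lower, where 4.02% of all genes were. ISG15 fell by 0.62 on the log2 scale (SE 0.14, adjusted p = 0.0224) and UBE2L6 fell by 0.39 (SE 0.10, adjusted p = 0.0389, edgeR). An exact permutation test, two-sided, exchanged doxycycline labels within each arm. Its p was 0.015 for ISG15 and 0.01 for UBE2L6, and the smallest p this exchange allows is 0.005. The exchange took no account of replicate number, although same-numbered libraries deviated together, and exchange within pairs was not run. TRIM25, at −0.56 (SE 0.16), narrowly missed without the block (adjusted p = 0.0537) and passed with it (0.00482), which brought the calls to 3 of 7 against 15.8% of all genes. It also passed without a block by DESeq2 (adjusted p = 0.0109) and by edgeR without D replicate 2 (0.0489) or DI replicate 2 (0.0305). ISG15 kept its call in 9 of the 12 fits that left out 1 library, losing it without D replicate 3, I replicate 1 or DI replicate 3 (adjusted p = 0.0507, 0.0517 and 0.0578). UBE2L6 kept it in 3 of the 12, losing it without C replicate 1 or 2, D replicate 1 or 3, any I library, or DI replicate 1 or 3, with adjusted p of 0.0512 to 0.0899. No gene of the 7 was called once all 4 libraries of any replicate number were removed.

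Whether IFNγ raised these genes by a different factor with doxycycline than without was tested as an interaction. None of the 7 was called, nor was any of the 15828 genes by edgeR, with 99 at an unadjusted p under 0.05 and 1 called by DESeq2. For ISG15 the IFNγ response differed by −0.41 on the log2 scale (SE 0.27, 95% interval −1.01 to 0.19), for UBE2L6 by −0.38 (SE 0.20, −0.81 to 0.06) and for TRIM25 by −0.05 (SE 0.31, −0.74 to 0.64), each with an adjusted p of 1. UBA7 had the one unadjusted p under 0.05 (0.0237), which rests on totals of 2 counts in C and 9 in D. With the replicate number as a block the differences were −0.43 for ISG15 (SE 0.15, 95% interval −0.77 to −0.10) and −0.39 for UBE2L6 (SE 0.11, −0.63 to −0.15), with unadjusted p of 0.0159 and 0.00481, where 2.36% of all genes were under 0.05 and none was called (edgeR, adjusted p = 1). Within replicate numbers the UBE2L6 difference was −0.12, −0.40 and −0.64 in replicates 1, 2 and 3, and that of ISG15 was near 0 in replicate 1 and −0.71 and −0.64 in replicates 2 and 3. The comparisons share their libraries and are not independent of each other.

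The low HERC5 counts in replicate 2 were examined beside its neighbours. HERC5 was between 0 and 0.873 CPM in the 4 replicate 2 libraries and between 2.93 and 19.0 CPM in the 8 others. In the model with blocks, the replicate number had an adjusted p of 0.000166 for HERC5, with replicate 2 below replicate 1 by −4.95 on the log2 scale, although 44.0% of all genes were called by this test. HERC6, next to it on chromosome 4, had an adjusted p of 0.574, and PPM1K, PKD2, NAP1L5 and FAM13A, within 500000 bases of HERC5, had mean levels in replicate 2 of 16.6, 24.3, 32.8 and 31.4 CPM against 16.5, 26.5, 29.1 and 29.4 CPM in replicate 1. Of the other neighbours, PYURF was lower in replicate 2 than in replicate 1 by −0.32 on the log2 scale (adjusted p = 0.00673) and HERC3 was higher by 0.79 (adjusted p = 0.0371). SPP1, also in that span, was at 0 in all 4 replicate 2 libraries and between 0.307 and 1.45 CPM in the others. ISG15 and UBE2L6 also differed with replicate number, by far less, with replicate 3 below replicate 1 by −0.44 and −0.24 on the log2 scale (adjusted p = 0.00833 and 0.00965).

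**Figure D4:**
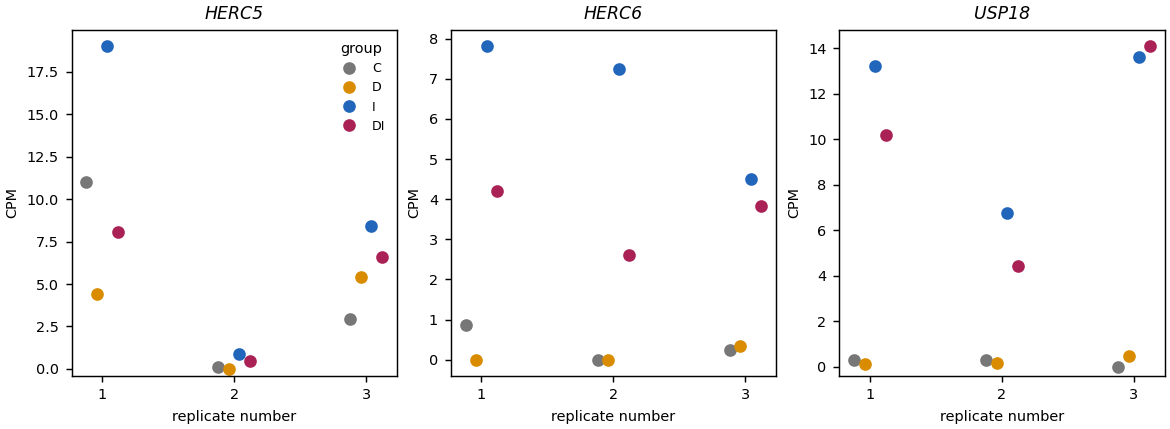
Level in CPM (linear axis) of HERC5, HERC6 and USP18 against replicate number, with the groups in colour. HERC5 is at most 0.873 CPM in replicate 2, whereas HERC6 reaches 7.25 CPM there in group I.

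Over the 12 libraries, 6 members tracked the mean of the other members, with Pearson's r of 0.926 to 0.978, and HERC5 had an r of 0.336. These values describe libraries that share the IFNγ contrast. The genes outside the set whose profile was most like the members' mean were FBXO6, with an r of 0.996, CD274 (0.988), IFIH1 (0.986), PARP12 (0.986) and BTN3A2 (0.985).

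The related gene lists are read against the 2.10% of all genes called higher in I against C. Of 15 counterparts on the ubiquitin side, 1 was called higher, namely UBA6, an activating enzyme for ubiquitin and FAT10, at 0.62 (SE 0.14, adjusted p = 0.0435). UBA1, the ubiquitin activating enzyme, had 0.01 (SE 0.14, adjusted p = 0.9998), and UBE2L3, the closest relative of UBE2L6, had 0.29 (SE 0.17, adjusted p = 0.876). HERC3, a further small HERC ligase beside HERC5, had 0.01 (SE 0.38). None of 7 other proteases reported to act on ISG15 and none of 20 tested genes of other ubiquitin-like systems was called in I against C. FAT10 itself (UBD), also an interferon-inducible modifier, had no count in any library.

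Upstream, 7 of 13 genes of ISGF3, the receptors and related factors were called higher in I against C, from IRF1 at 7.58 (SE 0.18, adjusted p = 2.75e-09) down to IRF3 at 1.17 (SE 0.16, adjusted p = 0.00185). STAT2 at 2.51 and IRF9 at 2.74, which act in the ISGF3 complex, were among them. With doxycycline over both arms, 2 of the 13 were called higher and 0 lower, where 579 of all 15828 genes were called higher. Of the 13, 9 had a fitted value below 0. IRF9, with 7 to 18 counts in C, was among those called and went opposite to ISG15. It rose by 1.12 (SE 0.26, adjusted p = 0.0279, edgeR). Of 15 tested genes whose proteins are reported to carry ISG15, 7 were called higher in I against C, and IFIT3, an antiviral RNA-binding protein with the largest rise, was the one called lower in DI against I, at −1.44 (SE 0.24, adjusted p = 0.0247). A further list held TRIM genes linked to interferon and ZC3HAV1, which is not a TRIM gene. Of its 9 tested genes, 6 were called higher. Of 3 other reported ligases or regulators 1 was, TRIM21, at 7.76 (SE 0.43, adjusted p = 1.24e-06). TRIM21 is in both of these lists and is counted in each.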

How the data were processed

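RNA-seq of 12 SK-N-DZ libraries was used as raw read counts per gene, as the authors deposited them. The authors' processing notes name DESeq2, without a version; the aligner, the annotation and the strand setting are not given in the sources used here. The deposited comparison tables hold the authors' fold changes and p-values, which were not used, nor were 18 per-library columns whose names match no label. Groups came from the sample titles. The labels do not say whether replicates were separate cultures, so p-values measure the spread between these libraries only, which may be technical.

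Counts were scaled by TMM and filtered by filterByExpr (minimum count 10), and 1 model with a mean per group was fitted over all 12 libraries by edgeR 4.0.16 (quasi-likelihood test, R 4.3.3). Adjusted p is Benjamini-Hochberg over all 15828 genes, called under 0.05. Alternatives used DESeq2 1.42.0, limma 3.58.1 (voom), other scalings, no filter, 2 groups only, left-out libraries and a block. Same-numbered libraries deviated together (r of 0.338 to 0.804 over 18 pairs, against −0.628 to 0.143 over 36 others), so the numbers pair the libraries. Exon lengths came from GENCODE 29, which held all 43769 gene IDs. The edgeR fit without a block was tried on simulated counts for I against C, drawn without any effect of replicate number. The other fits and comparisons were not tried in this way. Named genes were the 7 members, ARID1A, paralogs, the largest and smallest rise called in I against C in each gene list, and the 5 genes most like the members' mean; others were named after their values were seen. Members and lists were chosen with earlier results of these data known. Floors cover counting error only, and 95% intervals come from the fitted spread between libraries. No library was dropped and no value imputed. Some items are not reported here.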

Additional observations from a re-analysis of the deposited data

How the results depend on the processing

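Calls in the IFNγ comparisons kept their side of the threshold for ISG15, UBA7, UBE2L6 and TRIM25 in every alternative, and direction held for all 7 genes. With the replicate number as a block, the genes called numbered 953 (I against C), 706 (DI against D), 2200 (D against C), 1658 (DI against I) and 4593 (doxycycline over both arms), where the fit without it gave 350, 273, 194, 106 and 1216. The block called 1 member in D against C and 3 in DI against I, and beyond those and the calls given above it changed no other call of a member. DESeq2 called 529 genes in I against C, 650 in D against C, 471 in DI against I, 1996 over both arms and 1 for the interaction, and 2 members in DI against I, where limma voom called 1. Without a filter, 119 genes were called in D against C and 752 over both arms. Fits of the 2 groups alone called 16 genes in D against C and 0 in DI against I (1508 at an unadjusted p under 0.05). Over both arms 1 member was called with library size alone or with no filter, and the USP18 difference turned to 0.053 with library size alone and 0.077 by limma voom. The causes were not tested.

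Leaving out 1 library gave 42 to 195 genes in D against C, 35 to 96 in DI against I, 625 to 1362 over both arms, and 0 to 3 members over both arms. Leaving out 1 replicate number (chosen after seeing the data) gave 127 to 247 in I against C, 98 to 215 in DI against D, 0 to 100 in D against C, 0 to 38 in DI against I, 71, 146 and 1313 over both arms, and 0 members there.

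Depth limited the folds of UBA7, HERC6 and USP18, which had few counts without IFNγ. Some differences that passed no test changed sign when libraries were left out. Leaving out 1 library, the log2 difference ran from −1.10 to 1.11 for HERC5 and −0.70 to 0.56 for USP18 in D against C, and from −1.44 to 0.11 and −0.62 to 0.12 in DI against I. Over both arms it ran from −0.996 to 0.11 for HERC5 and −0.47 to 0.17 for USP18. In the interaction it ran from −2.005 to 0.63 for HERC5, −0.76 to 4.94 for HERC6, −0.78 to 0.48 for USP18 and −0.25 to 0.11 for TRIM25. Without replicate 1, D against C turned to 0.84 for HERC5 and 0.51 for HERC6, both arms to 0.22 for HERC5 and 0.39 for USP18, and the interaction to −1.38 for HERC6. Without replicate 2, both arms turned to 0.31 for USP18 and the interaction to 0.071 for TRIM25. Without replicate 3, D against C turned to −1.25 for USP18, and the interaction to 0.11 for HERC5, 0.81 for USP18 and 0.015 for TRIM25.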
